A study of Mus musculus with 18 samples.

Results

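The tRNA genes for alanine, valine, isoleucine, threonine and methionine were examined in EV and in cells of mouse bone marrow-derived DC cultures. They were chosen by name alone, as tRNA entries whose name ends in 1 of these amino acids and an anticodon, without the intron-bearing IleTAT. The choice gave 112 of the 435 tRNA genes and of the 6017 RNA genes in the count table. They fall into 13 isoacceptors, which are the tRNAs of an amino acid that share an anticodon: 40 gene copies for Ala, 23 for Val, 12 for Ile, 18 for Thr and 19 for Met. DC were grown with GM-CSF from bone marrow of C57BL/6 mice of 8 to 12 weeks and were left untreated (control), received LPS, the bacterial endotoxin that stimulates DC, at 1 µg/ml for 24 h, or received VitD3, the active form of vitamin D, at 10 nM for 12 days. After 20 h in EV-depleted medium, cells (control-DC, LPS-DC, VitD3-DC) and density gradient-purified EV (control-EV, LPS-EV, VitD3-EV) gave n = 3 biological replicates per group, or 18 libraries in 9 pairs of EV and cells. GM-CSF cultures of bone marrow hold other myeloid cells beside DC, and the libraries describe the culture as a whole. More EV and more RNA per EV cannot be told apart in such pooled material.

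Transfer RNA carries an amino acid to the ribosome and reads a codon with its anticodon. In AlaAGC, ValAAC, IleAAT and ThrAGT the first anticodon base is an adenosine that the cell converts to inosine, which widens the range of codons read. MetCAT holds both the initiator tRNA that starts translation and the elongator tRNA, and the count table does not tell them apart. Mature tRNA can be cut in or beside the anticodon loop into fragments, which many cells release with EV. Modified bases and the folded structure hinder reverse transcription of whole tRNA in small RNA libraries, so a read count is not the amount of mature tRNA.

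Sequences of 3 genes of these families could be read from RefSeq windows of mouse build GRCm38.p6 and are shown because they carry the anticodons compared here: an inosine-type anticodon of Thr, 1 of Ala, and the CAC anticodon of the most abundant family. The anticodon is in capitals. The Thr gene is the only ThrAGT gene of chromosome 7 in both sources and so is the copy chr7.tRNA1217-ThrAGT, at chr7:35234770-35234843 on the minus strand. The other 2 lie on chromosome 13, where the count table has 9 AlaAGC and 5 ValCAC copies, and were not assigned to a copy. They are at chr13:21222586-21222657 (plus strand) and chr13:23446142-23446214 (minus strand).
ThrAGT, n-TTagt9: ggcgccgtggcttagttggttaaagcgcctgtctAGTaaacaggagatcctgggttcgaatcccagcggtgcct
AlaAGC, n-TAagc16: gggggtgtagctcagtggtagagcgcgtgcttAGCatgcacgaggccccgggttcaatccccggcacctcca
ValCAC, n-TVcac9: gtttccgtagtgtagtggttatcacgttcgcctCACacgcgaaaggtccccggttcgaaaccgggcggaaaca
Counted from 1 at the 5′ end, the anticodon takes positions 35 to 37 of the 74 bases of the Thr gene, 33 to 35 of the 72 bases of the Ala gene and 34 to 36 of the 73 bases of the Val gene.

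Libraries held 133711 to 2326623 tRNA reads in EV and 7514401 to 13181561 in cells, of which 2208 to 11881 and 23806 to 90277 came from the 112 genes. LPS-EV replicate 2 was the smallest library. Reads of copies with near-identical sequence may be counted at several of them, so counts of single copies are uncertain. The miRNAs listed for myeloid cells (miR-223-3p, miR-142a-3p and -5p, miR-21a-5p, miR-155-5p) together took 24.6% to 65.8% of miRNA reads. Whether each is particular to myeloid cells was not tested. The 3 muscle miRNAs took 6.67% to 7.41% in EV and 0.362% to 0.748% in cells of replicate 3, against at most 0.0202% in any library of replicates 1 and 2. The listed erythroid, liver, epithelial, endothelial and stromal miRNAs stayed at or below 0.121% in each list and library. The part of the muscle miRNAs' source in the values of replicate 3 was not tested. All replicate 3 libraries are labelled sequencing run 2, as is VitD3-DC replicate 2.

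Valine tRNA led in both compartments. Of the reads of the 112 genes, Val took 93.6% in EV and 87.0% in cells, and ValCAC alone took 63.9% and 60.3%. ValAAC followed with 28.5% and 25.5%. MetCAT had 2.67% and 4.37%, Ala 2.16% and 4.13%, Ile 0.592% and 3.25%, and Thr 0.982% and 1.22%. ValGAC had 0 reads in the 18 libraries, and IleGAT had 2 reads in EV and 13 in cells. Thus 92 of the 112 copies had at least 1 read, 78 of them in EV, and 81 reached 10 reads over the 18 libraries.

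A few copies held most of these reads. chr3.tRNA48-ValAAC (chromosome 3, 30601270 to 30601342) had 16491 of the 17474 ValAAC reads in EV and 92694 of the 97790 in cells. chr1.tRNA710-ValCAC (chromosome 1, 171111443 to 171111515) and chr3.tRNA284-ValCAC had 18414 and 18403 EV reads and 107206 and 107122 cellular reads. Their counts differed by under 1% over the 18 libraries, the only such group among the 81 copies, and the pair cannot be told apart. Chromosome 13 carries 46 of the 112 copies, of which 45 had reads, yet gave 3.85% of the reads of the 112 genes in EV and 6.06% in cells. The X chromosome carries 15 copies, and 10 of them had no read in any library.

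**Figure D1:**
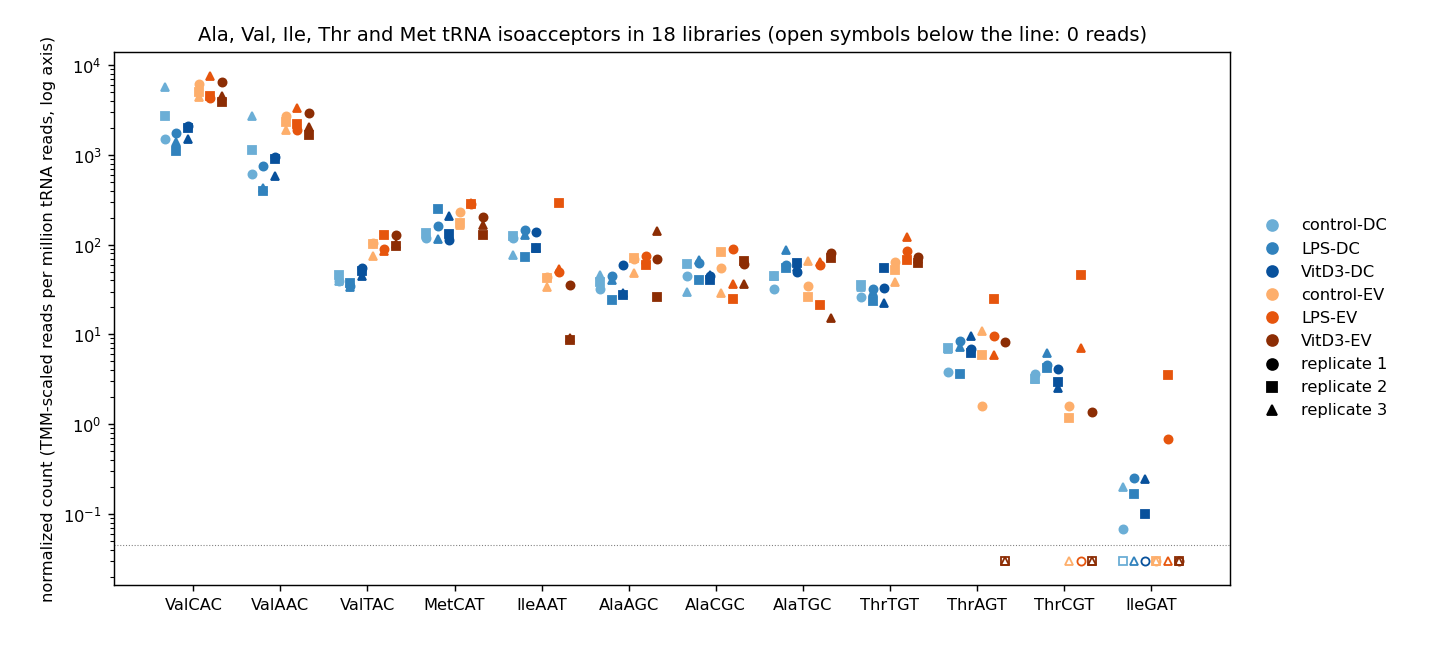
Normalized counts (TMM-scaled CPM of tRNA reads, log axis) of 12 isoacceptors in 18 libraries, by group (colour) and replicate (symbol), with libraries at 0 reads drawn open below the dotted line. ValCAC lay between 1096 and 7524, and the EV and cellular libraries separated completely for ValTAC on this TMM scale, with 75.01 to 130 against 34.05 to 55.4.

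Each library's share of tRNA reads that came from the 112 genes was compared first. It was 0.288%, 0.374% and 1.20% in control-DC, 0.533%, 0.317% and 0.252% in LPS-DC, and 0.439%, 0.416% and 0.288% in VitD3-DC (replicates 1 to 3). EV had 0.511%, 0.686% and 0.422% in control-EV, 0.528%, 1.65% and 0.716% in LPS-EV, and 0.601%, 0.434% and 0.843% in VitD3-EV. The groups overlapped, with control-DC replicate 3 high among the cells and LPS-EV replicate 2 high among the EV. The 95% Wilson interval of the latter, which covers counting error only, was 1.58% to 1.72%. The share was higher in EV in 7 of 9 pairs, by 0.68 on the log2 scale on average (two-sided exact sign-flip test, p = 0.109). It passed when the culture of control replicate 3 was left out (log2 ratio 0.96, the exact test over 8 pairs giving p = 0.0156). With any other culture or replicate left out it did not pass (p = 0.0625 to 0.375 by the same exact test). Of the tRNA reads outside Glu, Gly, Lys and Gln, the 112 genes took 35.8% to 47.8% in EV and 19.4% to 51.8% in cells. In 8 of 9 pairs EV had the higher share (p = 0.0195 by the same exact test). These tests take the pairs as independent, although pairs with the same replicate number may share an experiment day.

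**Figure D2:**
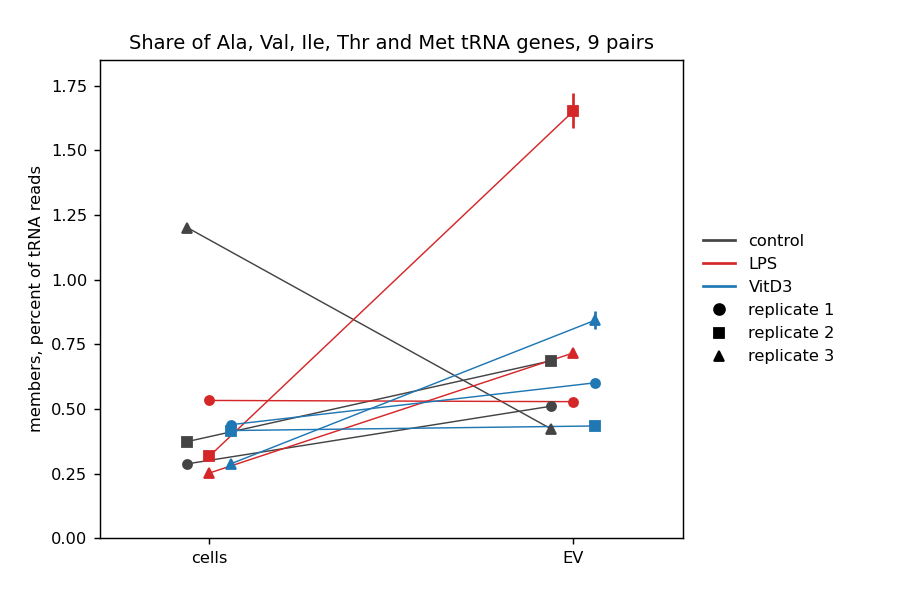
Share of tRNA reads from the 112 genes (percent, linear axis) in cells and EV, with lines joining EV and cells of the same culture and bars for 95% Wilson intervals. Of the 9 lines 7 rise, and control replicate 3 falls from 1.20% to 0.422%.

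EV and cells were then compared isoacceptor by isoacceptor, on counts summed over copies. By the paper's methods, EV libraries were made from less RNA than cellular libraries, and the medium was not wholly free of other EV. Both go with the compartment and cannot be told apart from it here. Normalized counts are CPM of tRNA reads after TMM scaling, log2FC is EV over cells, and FDR the Benjamini-Hochberg adjusted p of edgeR's quasi-likelihood test over all 49 tRNA isoacceptors tested. ValAAC, ValCAC, ValTAC, ThrTGT and AlaAGC were higher and IleAAT was lower in EV at FDR below 0.05, 6 of the 12 isoacceptors tested here. Over all 49 the share called was 55.1%, so a call was not rare. The median log2FC over the 49 was 0.45 with 5 higher and 1 lower here, and 0.29 over the 12. That median moved to between -0.18 and 0.02 with other scalings, and the share of higher among all calls from 66.7% to between 20.0% and 44.4%. Values relative to the median are therefore given beside each log2FC.

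ValCAC had 1499, 2720 and 5755 normalized counts in control-DC, 1744, 1096 and 1389 in LPS-DC, and 2111, 2004 and 1515 in VitD3-DC. EV held 6132, 5083 and 4404 in control-EV, 4270, 4580 and 7524 in LPS-EV, and 6419, 3893 and 4495 in VitD3-EV. EV were higher in 8 of 9 pairs, and only control-DC replicate 3 reached into the range of EV. The log2FC was 1.39 (SE 0.28, edgeR FDR 4.19e-06), or 0.94 above the median isoacceptor. ValAAC behaved alike, with 393 to 2726 normalized counts in cells (median 752) and 1650 to 3309 in EV (median 2211). Its log2FC was 1.54 (SE 0.27, edgeR FDR 3.44e-07), 1.09 above the median. Without a scaling step, reads of ValAAC over reads of ValCAC within a library were 0.424 to 0.483 in EV and 0.306 to 0.474 in cells, so both anticodons kept nearly the same proportion.

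ValTAC, the least abundant Val isoacceptor with reads, separated the compartments without overlap in normalized counts. Cells had 39.7, 45.8 and 39.2 normalized counts in control-DC, 34.5, 36.99 and 34.05 in LPS-DC, and 55.4, 51.0 and 44.2 in VitD3-DC. EV had 105, 101.2 and 75.01 in control-EV, 89.7, 130 and 84.1 in LPS-EV, and 128, 95.4 and 100 in VitD3-EV. EV were higher in 9 of 9 pairs (log2FC 1.25, SE 0.24, edgeR FDR 2.24e-06, 0.80 above the median). This call was lost with scaling by the tRNA total alone (edgeR FDR 0.122). ThrTGT was also higher in 9 of 9 pairs, with 22.5 to 55.2 normalized counts in cells (median 32.2) and 38.01 to 122.04 in EV (median 66.6). Its log2FC was 1.10 (SE 0.25, edgeR FDR 4.54e-05), 0.65 above the median, and its call was lost with scaling by the tRNA total (edgeR FDR 0.256) or TMM over all classes (0.0719).

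IleAAT went the other way. Cells had 1749, 1207 and 772 reads in control-DC, 2335, 876 and 1835 in LPS-DC, and 1600, 916 and 1145 in VitD3-DC. EV had 55, 36 and 34 reads in control-EV, 73, 83 and 45 in LPS-EV, and 26, 6 and 3 in VitD3-EV. Normalized counts were 73.6 to 147 in cells and 8.68 to 53.3 in 8 EV libraries, with LPS-EV replicate 2 apart at 291. IleAAT was lower in EV in 8 of 9 pairs (log2FC -1.50, SE 0.27, edgeR FDR 3.44e-07, 1.95 below the median). Within a library, ValAAC reads were 3.30 to 35.8 times those of IleAAT in cells (median 6.24) and 7.56 to 194 times in EV (median 61.4). This ratio needs no scaling between libraries; EV exceeded cells in 9 of 9 pairs. These isoacceptors were chosen after the values had been seen.

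**Figure D3:**
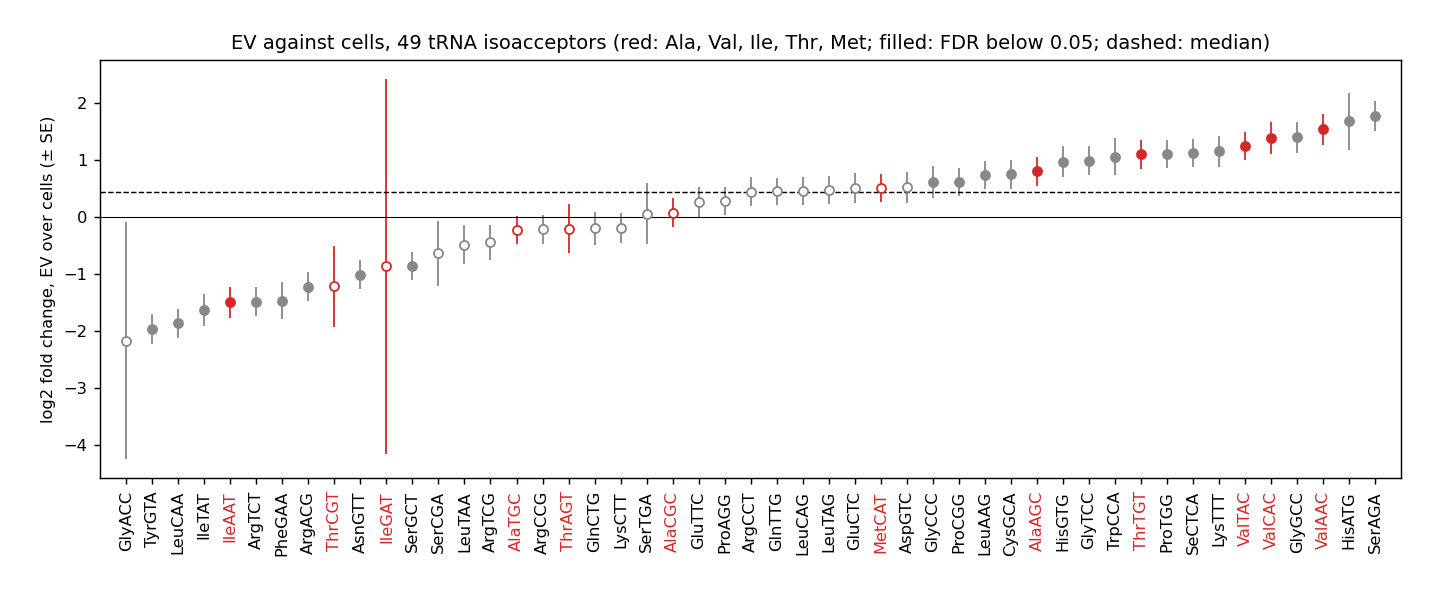
Fitted log2 fold change of EV over cells for 49 tRNA isoacceptors, with the SE, in rising order; red marks the 12 isoacceptors of Ala, Val, Ile, Thr and Met, filled symbols edgeR FDR below 0.05, and the dashed line the median of 0.45. The red points run from IleAAT at -1.50 to ValAAC at 1.54, except for the wide error of IleGAT.

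The remaining isoacceptors lay between these ends. AlaAGC had 23.9 to 59.9 normalized counts in cells (median 38.01) and 26.03 to 140 in EV (median 68.5), higher in 8 of 9 pairs (log2FC 0.80, SE 0.25, edgeR FDR 0.00321). This call was lost in 12 of 22 other settings, among them each of the 4 other scalings, DESeq2 included. The FDR was 0.2499 by DESeq2, and the edgeR FDR 0.263 to 0.780 with the others. It was also lost without replicate 1 (edgeR FDR 0.0529), 2 (0.0795) or 3 (0.185). MetCAT had 113 to 250 in cells and 127 to 293 in EV (log2FC 0.51, SE 0.24, edgeR FDR 0.0648), 0.06 above the median. AlaCGC had a log2FC of 0.08 (SE 0.25, edgeR FDR 0.782) and AlaTGC of -0.23 (SE 0.25, edgeR FDR 0.433), which are 0.37 and 0.68 below the median. AlaTGC was called lower with each of the 4 other scalings, and AlaCGC changed its sign with all 4. ThrAGT (log2FC -0.21, SE 0.43) and ThrCGT (-1.22, SE 0.71) rested on 50 and 23 EV reads and did not pass (edgeR FDR 0.674 and 0.122). ThrCGT was called lower in 5 of 22 other settings, by the likelihood ratio test (0.0420), DESeq2 (0.0233), TMM over all classes (0.0179), at least 1 read (0.0416) and without the culture of LPS replicate 2 (0.0120). The sums thus run from ValAAC at the top to IleAAT at the bottom, with Ala, Met and Thr between.

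By wobble base, the 4 inosine-type isoacceptors gave 2 higher (ValAAC, AlaAGC) and 1 lower (IleAAT), with a median log2FC of 0.30. The 8 others with reads, MetCAT among them, gave 3 higher and 0 lower, with a median of 0.29. The inosine-type isoacceptors of other amino acids (SerAGA, ProAGG, LeuAAG, ArgACG) likewise gave 2 higher and 1 lower, from -1.22 to 1.77. Glu and Gly gave 3 higher of 6, and Lys and Gln 1 higher of 4. Both inosine-type lists thus reached to either side of the median isoacceptor.

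The EV effect was also fitted within each treatment. For control-EV against control-DC, ValTAC (log2FC 1.16, edgeR FDR 0.0217) was higher and IleAAT (-1.38, edgeR FDR 0.0108) lower, with 30.6% of all isoacceptors called. For LPS-EV against LPS-DC, ValAAC (2.27), ValCAC (1.93), ThrTGT (1.65) and ValTAC (1.49) were higher, with 36.7% called. For VitD3-EV against VitD3-DC, ValAAC (1.45), ValCAC (1.38) and ValTAC (1.10) were higher and IleAAT (-2.74) lower, with 22.4% called. Differences between these effects were not called for any isoacceptor by edgeR (0 of 49, 0.0%, LPS or VitD3 against control). At an unadjusted p under 0.05, ValAAC differed between LPS and control (difference 1.37, SE 0.67, 2.04% of isoacceptors) and IleAAT between VitD3 and control (-1.36, SE 0.65, 4.08%). Their edgeR FDR were 0.896 and 0.878.

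Single copies were tested next. The fit over genes kept those that reached 10 reads in sum, 81 of the 112 copies and 337 tRNA genes in all. It called 29 copies, 15 higher and 14 lower in EV, where 39.5% of all tRNA genes were called. Of the 81 copies 26 passed the filter through cellular reads, with under 10 reads in EV, and these gave 8 of the 14 lower calls and no higher one. Among the 55 copies with at least 10 EV reads 15 were higher and 6 lower, and 16 and 6 when only such genes were fitted. Without replicate 1 the count fell from 29 to 13, with 4 higher and 9 lower. The median log2FC over the 337 genes was -0.57, so that log2FC of genes and of isoacceptors are on different scales. Of the calls over all tRNA genes 24.1% were higher in EV, and 34.8% by DESeq2.

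Of the 6 IleAAT copies on chromosome 13, 4 were almost empty in EV. chr13.tRNA968-IleAAT had 459, 337 and 214 reads in control-DC, 466, 138 and 413 in LPS-DC, and 374, 224 and 288 in VitD3-DC. In EV it had 0, 0 and 2 reads in control-EV, 3, 1 and 1 in LPS-EV, and 1, 3 and 0 in VitD3-EV. The compartments did not overlap (log2FC -4.90, SE 0.47, edgeR FDR 9.13e-23, lower in 9 of 9 pairs). chr13.tRNA92-IleAAT had 752 reads in cells and 5 in EV, where 7 of 9 libraries were at 0. chr13.tRNA1001-IleAAT had 460 and 1, a 54.8-fold lower share of tRNA reads in EV (exact 95% counting interval 9.79 to 2170). chr13.tRNA1002-IleAAT had 169 and 0, at least 6.71-fold lower against a floor of 3 counts over the 9 EV libraries. These last 3 copies passed the read filter through the cells alone and were named for a large change, so no test is given for them. The counting interval leaves out the spread between libraries and is no test either.

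Together these 4 copies, named by the rule for the largest changes, held 26.5% to 40.2% of IleAAT reads in each cellular library (34.5% of all 12435). In EV they held 17 of 361 reads, or 4.71%, and 0 in 3 of 9 libraries. VitD3-EV replicate 2 was the exception with 3 of 6 reads. The other 2 copies on chromosome 13 did not share this, with 17 EV and 42 cellular reads for chr13.tRNA100-IleAAT (log2FC -0.35, SE 1.14) and 10 and 29 for chr13.tRNA980-IleAAT (log2FC 1.38, SE 1.18). They held 27 of the 44 EV reads of IleAAT on chromosome 13, and neither was called. All 7 other IleAAT copies gave 344 of the 361 EV reads. Among them chr12.tRNA476-IleAAT (chromosome 12, 110845338 to 110845411) held 25.5% of IleAAT reads in EV and 8.77% in cells, and its own level differed less (log2FC -0.67, SE 0.41, edgeR FDR 0.200). chr11.tRNA393-IleAAT, the copy with most reads, was lower in EV as well (95 against 3988 reads, log2FC -2.55, SE 0.36, edgeR FDR 4.78e-11), and so was chr11.tRNA1823-IleAAT (95 against 2522 reads, log2FC -1.92). Of the 7 IleAAT copies with at least 10 EV reads 3 were called lower and 0 higher, near the 39.5% called among all tRNA genes.

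**Figure D4:**
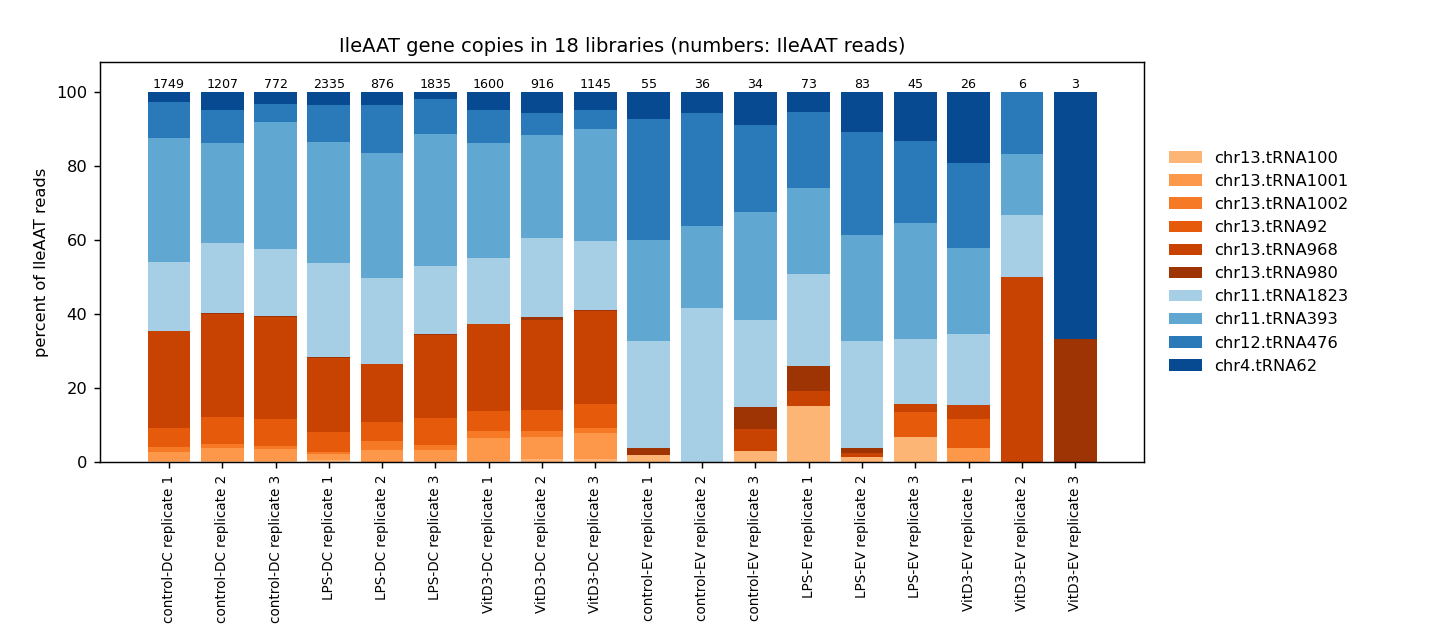
Share of IleAAT reads (percent) held by each of 10 gene copies in 18 libraries, with copies on chromosome 13 in orange, others in blue, and the number of IleAAT reads above each bar. Cells held 26.5% to 41.1% on chromosome 13, and EV mostly the 4 copies elsewhere, on 3 to 83 reads.

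AlaAGC held a like case within an isoacceptor that was not lower in sum. chr13.tRNA66-AlaAGC had 157, 66 and 134 reads in control-DC, 96, 69 and 311 in LPS-DC, and 63, 40 and 49 in VitD3-DC. In EV it had 2 reads, both in LPS-EV replicate 1, and 0 in the 8 other libraries. It took 23.3% of AlaAGC reads in cells and 0.406% in EV, a 58.7-fold lower share of tRNA reads in EV (exact 95% counting interval 16.2 to 485). chr13.tRNA67-AlaAGC had 88 reads in cells and 0 in EV, at least 3.50-fold lower. Both passed the read filter through the cells alone and were named for a large change. The counting interval leaves out the spread between libraries and is no test of such a copy. In contrast, chr3.tRNA29-AlaAGC (105 and 442 reads in EV and cells, log2FC 1.33, SE 0.40, edgeR FDR 0.00395) and chr5.tRNA110-AlaAGC (21.9% and 11.6% of AlaAGC reads, log2FC 1.23, SE 0.40) were higher in EV, copies picked here after their values had been seen. chr19.tRNA8-AlaAGC (chromosome 19, 3576263 to 3576335) had 95 and 906 reads and did not pass (log2FC -0.07, SE 0.37, edgeR FDR 0.886). Chromosome 13 copies held 31.3% to 69.3% of AlaAGC reads in cells and 19.6% to 30.2% in EV, lower in 9 of 9 pairs. Over all libraries this was 45.2% and 25.8%, of which chr13.tRNA66-AlaAGC made up 23.3% and 0.406%. The difference thus rests on that copy, picked for its large change. chr13.tRNA102-AlaAGC, on the same chromosome, held 17.6% in cells and 23.1% in EV.

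**Figure D5:**
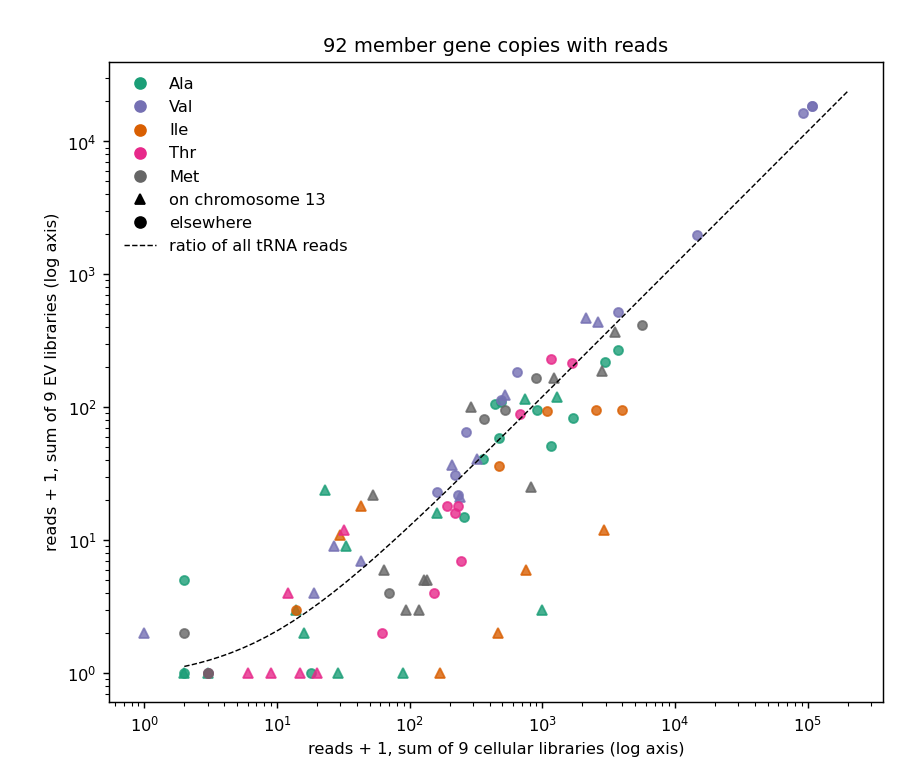
Reads + 1 of the 92 copies with reads, summed over 9 EV libraries (vertical) and 9 cellular libraries (horizontal), both on log axes, with colour for the amino acid and triangles for chromosome 13; the dashed line is the ratio of all tRNA reads. chr13.tRNA968-IleAAT (2913 and 11 reads) and chr13.tRNA66-AlaAGC (985 and 2 reads) lie far below the line, and the leading Val copies lie on or above it.

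The share of chromosome 13 copies went different ways in other families. For MetCAT they held 55.4% of reads in cells and 53.8% in EV (lower in 8 of 9 pairs), and for ValAAC 4.94% and 5.26%. For ThrAGT it was 10.2% in cells and 28.0% in EV, on 75 and 14 reads, and the few such reads of ThrCGT and ThrTGT (5 and 8) were all cellular. chr13.tRNA68-AlaTGC (chromosome 13, 21240945 to 21241016) held 0.359% of AlaTGC reads in cells and 5.90% in EV, but 15 of its 23 EV reads lay in control-EV replicate 3 and the other 8 EV libraries had 0 to 3. chr13.tRNA995-MetCAT had 369 EV and 3546 cellular reads (log2FC 0.05, SE 0.29, edgeR FDR 0.892), and chr3.tRNA792-MetCAT (chromosome 3, 90475860 to 90475931) 413 and 5618 (log2FC -0.54, SE 0.29, edgeR FDR 0.125). chr13.tRNA1011-MetCAT had 24 and 823 reads (log2FC -2.02, SE 0.51). It was named here for its large change, by a rule that required an FDR below 0.05 and 1 direction in 9 of 9 pairs. Its FDR and direction are therefore no test. The call was lost without replicate 3 (edgeR FDR 0.102) or the culture of LPS replicate 3 (0.0555). chr13.tRNA986-ValAAC had 436 and 2614 reads (log2FC 0.71, SE 0.29, edgeR FDR 0.0401). Its call was lost without replicate 1 (0.172) or 2 (0.125), the cultures of control replicate 1 (0.0519) or LPS replicate 2 (0.0654), and with scaling by the tRNA total (0.0794).

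Among the Val copies 9 of the 20 tested were called, a share near the 39.5% of all tRNA genes, and the 9 count as separate the pair that cannot be told apart. All 9 were higher in EV, while 32 of the 337 tRNA genes tested were called higher. chr3.tRNA48-ValAAC had a log2FC of 0.87 (SE 0.28, edgeR FDR 0.00579), which is 1.44 above the median gene, and chr1.tRNA710-ValCAC of 0.76 (SE 0.27, edgeR FDR 0.0164). chr3.tRNA284-ValCAC, whose counts run with it, gave 0.76 as well. Both lost the call without replicate 1 (edgeR FDR 0.0727) or 2 (0.0678). chr19.tRNA109-ValTAC was higher in 9 of 9 pairs, with 184 reads in EV and 643 in cells (log2FC 1.22, SE 0.36, edgeR FDR 0.00296), a call lost without replicate 1 (0.163). chrX.tRNA460-ValTAC (chromosome X, 160766110 to 160766182) had 520 and 3737 (log2FC 0.45, SE 0.28, edgeR FDR 0.218) and passed in 7 of 22 other settings.

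The Ala and Thr copies with most reads were called in part. chr2.tRNA263-AlaCGC (chromosome 2, 57182078 to 57182149) had 267 EV and 3691 cellular reads (log2FC -0.66, SE 0.31, edgeR FDR 0.0732), and chr13.tRNA967-AlaCGC 118 and 1287 (log2FC -0.28, SE 0.37). chr5.tRNA1318-AlaTGC had 217 and 2974 (log2FC -0.66, SE 0.31, edgeR FDR 0.0825), and chr11.tRNA2022-AlaTGC (chromosome 11, 48834429 to 48834500) was lower in 9 of 9 pairs with 82 and 1704 (log2FC -1.29, SE 0.36, edgeR FDR 0.00161). The latter call was lost without the cultures of control replicate 2 (0.0689), LPS replicate 3 (0.0633) or VitD3 replicate 3 (0.0515). Of the Thr copies, chr14.tRNA710-ThrTGT was higher in EV with 228 and 1151 reads (log2FC 0.82, SE 0.32, edgeR FDR 0.0331), lost in 4 of 22 settings, without replicate 1 (0.313) or the culture of control replicate 1 (0.0664) among them. chr11.tRNA206-ThrTGT had 213 and 1679 (log2FC 0.14, SE 0.31). chr16.tRNA50-ThrCGT had 6 and 242, chr11.tRNA550-ThrCGT 17 and 190, and chr11.tRNA395-ThrAGT 3 and 151, a 5.998-fold lower share in EV (exact 95% counting interval 2.01 to 29.4). The first and the last of these passed the read filter through the cells alone. The last was named for its large change, and its interval covers counting error only and is no test. The sequenced copy chr7.tRNA1217-ThrAGT had 17 and 231 reads and chr11.tRNA1822-ThrAGT 15 and 217, without a call. chr2.tRNA1506-IleGAT, the only IleGAT copy, had 2 and 13 reads.

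Treatments were compared within EV and within cells, LPS or VitD3 against control and LPS against VitD3. The 2 contrasts with control share the control libraries. By edgeR, 0 of the 55 copies tested in EV and 0 of the 81 tested in cells were called in any of these 6 comparisons. Over all tRNA genes the share called was 0.0%, except for 3.28% in LPS-DC against VitD3-DC. DESeq2 called 1 copy in LPS-DC and 0 in the other 5. Of isoacceptors, 1 was called here, IleAAT in LPS-EV against VitD3-EV, where 2.13% of all isoacceptors were. In LPS-DC against VitD3-DC 2.04% of all isoacceptors and in VitD3-DC against control-DC 10.2% were called, with 0 from these families in both.

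IleAAT in EV gave the reads listed above, 73, 83 and 45 in LPS-EV and 26, 6 and 3 in VitD3-EV. The groups did not overlap in normalized counts, with 49.6, 291 and 53.3 against 35.8, 8.68 and 9.14. The log2FC was 2.83 (SE 0.74, edgeR FDR 0.0482), higher in LPS-EV for 3 of 3 replicate numbers. The call was lost without LPS-EV replicate 2 (log2FC 1.55, edgeR FDR 0.193) or replicate 3 (0.0575), VitD3-EV replicate 2 (1.92, 0.393), control-EV replicate 1 (0.335), replicate 1 (0.0967) or replicate 2 (0.313), and with 3 other scalings (0.0595 to 0.574). Against control-EV, with 43.8, 42.4 and 34.01 normalized counts, IleAAT had a log2FC of 1.44 in LPS-EV (edgeR FDR 0.973) and -1.39 in VitD3-EV (edgeR FDR 0.918). The copies chr11.tRNA393-IleAAT (log2FC 3.07), chr11.tRNA1823-IleAAT (3.14) and chr12.tRNA476-IleAAT (2.94) had the lowest p of the 55 copies in LPS-EV against VitD3-EV, with an edgeR FDR of 0.0574, 0.0574 and 0.0663. They passed in 8, 9 and 6 other settings and not without LPS-EV replicate 2 (0.601, 0.471 and 0.619). The same 3 had the lowest p in VitD3-EV against control-EV, with log2FC of -1.72, -2.20 and -1.89 and an edgeR FDR of 0.993 each.

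At an unadjusted p under 0.05, 2 of 55 copies passed in LPS-EV against control-EV (4.23% of all tRNA genes), 3 in VitD3-EV against control-EV (1.92%) and 7 in LPS-EV against VitD3-EV (7.69%). The 2 in LPS-EV were chr13.tRNA966-ValCAC, with 18, 4 and 5 reads against 2, 0 and 2, and chr11.tRNA550-ThrCGT, with 0, 9 and 6 reads against 1, 1 and 0. Both rest on few reads (edgeR FDR 0.935). chr13.tRNA78-MetCAT had 53, 11 and 28 reads in LPS-EV and 14, 2 and 1 in VitD3-EV (log2FC 2.19, SE 0.72, edgeR FDR 0.0995). Of isoacceptors, 2 passed in LPS-EV against control-EV (4.26%), IleAAT and ThrCGT. In VitD3-EV against control-EV 0 did (0.0%), and in LPS-EV against VitD3-EV 3 did (8.51%), namely IleAAT, MetCAT (log2FC 1.14, SE 0.41, edgeR FDR 0.276) and ThrCGT. MetCAT was higher in LPS-EV than in VitD3-EV for 3 of 3 replicate numbers. It had 285, 280 and 293 normalized counts against 203, 127 and 167. ThrCGT had 0, 13 and 6 reads in LPS-EV and 1, 0 and 0 in VitD3-EV.

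In cells, control-DC replicate 3 stood apart in its Val reads. ValAAC had 619, 1122 and 2726 normalized counts in control-DC, 752, 393 and 426 in LPS-DC, and 953, 898 and 579 in VitD3-DC. LPS-DC lay below control-DC for 2 of 3 replicate numbers and above it for the other. The log2FC was -1.68 after LPS (SE 0.53, edgeR FDR 0.105) and -1.18 after VitD3 (SE 0.52, edgeR FDR 0.157). ValCAC gave -1.39 (SE 0.49, edgeR FDR 0.158) and -1.11 (SE 0.49, edgeR FDR 0.157), and ValTAC -0.50 after LPS (SE 0.22, edgeR FDR 0.241). Without control-DC replicate 3, ValAAC was at -0.45 after LPS and 0.11 after VitD3, and ValCAC at -0.36 and -0.03 (edgeR FDR 0.807 to 0.963). ValAAC and ValCAC were called lower after LPS by the likelihood ratio test (FDR 0.0124 and 0.0156) and without control-DC replicate 1 (0.00611 and 0.0308), and ValAAC without VitD3-DC replicate 3 (0.0486). The median isoacceptor had -0.29 after LPS and -0.24 after VitD3.

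Other isoacceptors changed less in cells. AlaTGC was higher in LPS-DC than in control-DC for 3 of 3 replicate numbers. It had 953, 658 and 1249 reads against 473, 436 and 452 (log2FC 0.46, SE 0.22, edgeR FDR 0.248, DESeq2 FDR 0.00128). Its copy chr5.tRNA1318-AlaTGC had the lowest p in LPS-DC, with 507, 329 and 756 reads against 199, 179 and 201 (log2FC 1.18, SE 0.30, edgeR FDR 0.163). This was the copy that DESeq2 called (FDR 0.0395). Of isoacceptors, 4 of 12 passed an unadjusted p under 0.05 in LPS-DC against control-DC (18.4% of all), 3 in VitD3-DC against control-DC (26.5%) and 1, ThrCGT, in LPS-DC against VitD3-DC (12.2%). Of copies, 7 of 81 did in LPS-DC (9.25% of all), 6 in VitD3-DC (10.1%) and 6 in LPS-DC against VitD3-DC (14.6%). Among these were chrX.tRNA637-AlaTGC in VitD3-DC, with 39, 53 and 34 reads against 7, 20 and 16 (log2FC 1.68, SE 0.45, edgeR FDR 0.318), and chr13.tRNA1001-IleAAT. The latter had 96, 54 and 81 reads in VitD3-DC, 42, 44 and 24 in control-DC and 39, 27 and 53 in LPS-DC (log2FC -1.23 for LPS-DC against VitD3-DC, SE 0.35, edgeR FDR 0.0956). In EV this copy had 1 read, in VitD3-EV replicate 1, and was at 0 in the other 8 libraries. The other copies with the lowest p were chr13.tRNA986-ValAAC, chr13.tRNA91-ValCAC, chr3.tRNA48-ValAAC and chr1.tRNA710-ValCAC after LPS and chr13.tRNA966-ValCAC, chr11.tRNA208-ValAAC and chr13.tRNA66-AlaAGC after VitD3, all lower (log2FC -1.49 to -1.05). For LPS-DC against VitD3-DC they were chr13.tRNA1011-MetCAT (log2FC 1.00), chr13.tRNA66-AlaAGC (1.10), chr13.tRNA1008-ThrAGT (-2.66, on 19 cellular reads) and chr13.tRNA95-ValAAC (-1.15), with an edgeR FDR of 0.145 to 0.261.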

How the data were processed

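Small RNA was sequenced in 18 libraries (6 groups, n = 3). The authors trimmed reads with cutadapt 1.8, kept those of at least 17 bp, aligned them to mm10 with gsnap, which reports up to 3 places per read, and counted them by strand with HTSeq 0.6.1p1. The deposited file holds these whole-number counts per RNA gene, without normalization; 0 rows name no gene. The tRNA rows carry no coordinates: 27 of the 112 rows are the only gene of their anticodon on their chromosome in the count table and in RefSeq (GRCm38.p6), and took that gene's position.

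Counts of tRNA genes, and their sums per isoacceptor, were tested with edgeR 4.0.16 (quasi-likelihood, two-sided), TMM within tRNA, at least 10 reads over the libraries fitted, and Benjamini-Hochberg adjustment over all tRNA features. Treatments were fitted in the 9 EV and 9 cellular libraries apart, with replicate number as block, as the study models experiment days. EV against cells used 18 libraries with culture as block. The replicate block was checked within each compartment, between libraries of different treatments. The deviations of libraries with the same number had r between -0.36 and 0.52 for EV, above 0.1 in 5 of 9 pairs, and between 0.02 and 0.36 for cells, above 0.1 in 6 of 9. With different numbers, r was above 0.1 in 4 of 18 pairs in EV and in 4 of 18 in cells. The pairing of EV with cells was not checked. The SE is the absolute log2FC over the root of F. Shares were compared with exact sign-flip tests (smallest p for 9 pairs 0.00391). These tests and the fit of EV against cells take the 9 cultures as independent. Cultures with the same replicate number may share an experiment day, so their p may be too small. A count of 0 allows up to 3 reads. Of 18 library pairs within groups 0 were identical (chi-square per degree of freedom 49.8 or more). Scripts were tested on simulated data.

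The genes and lists were chosen with earlier results of these data known. Named were every isoacceptor, its 2 copies with most reads, up to 5 copies per treatment comparison with the lowest p among those under 0.05, and up to 10 copies with the largest change in EV against cells at FDR below 0.05 and 1 direction in 9 of 9 pairs. Alternatives were the likelihood ratio test, DESeq2 1.42.0, DESeq2 size factors, scaling by the tRNA total, TMM over all classes, no block, at least 1 read, filterByExpr, identical counts once, other denominators for shares, and leaving out each replicate and library; a filter on EV reads alone was added after seeing the data.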

Additional observations from a re-analysis of the deposited data

How the results depend on the processing

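In EV against cells, IleAAT, ValAAC and ValCAC kept their direction and their call in 22 of 22 other settings (log2FC -2.21 to -1.25, 0.95 to 1.77 and 0.80 to 1.59), ValTAC in 21 and ThrTGT in 20. The count of copies called was 13 to 30 when a replicate or culture was left out, with 13 without replicate 1, and 22 with the filter on EV reads. Without the replicate block it was 32, and 0 in each of the 6 treatment comparisons; the log2 ratio of shares was 0.68 then too (exact permutation test of 9 against 9, p = 0.0387). By the exact sign-flip test that ratio was 0.86 of all counted reads (p = 0.0352) and 0.57 outside Glu, Gly, Lys and Gln (p = 0.0195), and 0.47 to 0.96 with a replicate or culture left out.

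Between treatments, the count of copies called rose from 0 to 5 by the likelihood ratio test and 3 with at least 1 read in LPS-EV against VitD3-EV, and to 1 by the likelihood ratio test or DESeq2 in LPS-DC against control-DC. TMM over all classes gave 6 and the likelihood ratio test 1 in LPS-DC against VitD3-DC. With a replicate or library left out it was 0 to 3 in LPS-EV against VitD3-EV, 0 to 4 in LPS-DC against control-DC, 0 to 2 in VitD3-DC against control-DC and 0 to 4 in LPS-DC against VitD3-DC. Without control-DC replicate 3 alone it was 1, 1 and 4 in these cellular comparisons. The cause of these moves was not tested. Taking genes with identical counts once left all counts as they were. It could merge none of the 81 copies, as none had the same counts as another, the near-identical ValCAC pair included. Depth limits the low copies: 18 copies with at least 10 cellular reads had 0 to 3 in EV.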
